A study of Mus musculus with 6 samples.

Results

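The 10 genes described here are known for secreted or epithelial proteins of innate defence and of the acute phase response. They are Lcn2, Ltf, Hp, Saa1, Saa2, Saa3, Slpi, Pla2g2a, Nos2 and Pigr, and RefSeq lists Pla2g2a as a transcribed pseudogene in the reference genome. Every probe set that the array's annotation gives to exactly 1 of these symbols was taken, which made 12 probe sets, 2 each for Saa1 and Pigr and 1 for each other gene, of 22626 probe sets and 12393 genes measured. No probe set paired 1 of these symbols with another gene. Crypts were prepared from the colons of male mice heterozygous for Lgr5-lacZ, a reporter allele at the stem cell gene Lgr5 that all 3 groups carried, and RNA was hybridized to 6 Affymetrix arrays. The control group drank water, and the DSS group drank 1% dextran sulfate sodium, a polymer that injures the colonic epithelium, until day 2. Both were 6 to 8 weeks old, and each array held the distal colons of 2 mice. In the tumor group, males of 6 to 8 weeks received the carcinogen azoxymethane (AOM) once by intraperitoneal injection at 12.5 mg/kg, then after 5 days 2% DSS for 5 days and 14 days of water, with further cycles at 1.5% and 1.0% DSS. Tumor crypts came from 12 pooled adenomas of 2 mice for each array, 90 days after AOM. Each group had 2 arrays, described as independent biological replicates, so p-values measure the spread between pools. That spread is taken over all 3 groups, so errors for DSS minus control also include the difference between the tumor arrays. The labels name the tissue of the DSS group as normal colon, and the strain was not given in the sources used here.

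Lipocalin-2, lactoferrin and haptoglobin bind iron or an iron carrier and keep it from bacteria: lipocalin-2 captures bacterial siderophores, lactoferrin binds free iron, and haptoglobin binds hemoglobin. The serum amyloid A proteins are lipid-binding acute phase proteins made in liver and, for several members, in epithelium. Slpi inhibits serine proteases such as neutrophil elastase, Pla2g2a is a phospholipase that attacks the membranes of Gram-positive bacteria, Nos2 makes nitric oxide, and Pigr carries polymeric IgA across the epithelium into the lumen. Many of these genes are known targets of NF-kB, C/EBP and STAT3 signalling in inflamed mucosa.

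In tumor crypts Lcn2, Pla2g2a, Saa3 and Slpi were higher than in control crypts by 3.10 to 6.13 on a log2 scale, and Saa1 and Saa2 were lower by 0.83 and 1.02. In DSS crypts none of the members passed the test. Across the 12 probe sets, both tumor arrays lay above both control arrays for 7 and below them for 5, where 28.9% and 23.1% of the 20380 probe sets with 1 gene did so. The 7 include Nos2, whose order near the floor cannot be read. The 5 are both probe sets of Saa1, both of Pigr and that of Saa2. Of the 7 members tested, 4 were called higher and 2 lower in tumor than in control crypts, with limma at an adjusted p under 0.05, against 12.9% and 9.75% of the 7456 genes tested. Lcn2, Saa3 and Pla2g2a passed the filter on low values only through the tumor arrays, so they had to differ in order to be tested. Hp, Ltf and Nos2 did not pass it. With no filter, 6 of the 10 members were called higher in tumor than in control crypts, and 7.25% of 12393 genes were called higher. Saa1 was called lower in that fit, for which the share of all genes called lower was not counted. The median change of the 10 members was 3.08 there, 3.55 without tumor replicate 1 and 2.05 without tumor replicate 2.

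Intensities are MAS5 signals, and changes are differences of log2 of the intensity plus 17.8, which understates the change of dim probe sets. In crypt pools, fewer cells of a type and less RNA per cell cannot be told apart. Median intensity was 94.8 to 131 per array, and the trimmed mean was 500.2 on each. The summed intensity of the 12 epithelial markers was 77212 to 91802 on the control and DSS arrays and 80219 to 82247 on the tumor arrays, and each marker lay above its array's median on all 6 arrays. None of 10 T and NK cell markers did so on any array. The median change of all genes between tumor and control was 0.05, and it became -0.20 with median centring and -0.03 with quantile normalization. Those settings turned the split of 959 genes higher and 727 lower into 652 and 1222, and into 885 and 906. Between tumor and DSS crypts, 1109 were higher and 843 lower, against 701 and 1256, and 969 and 982. No direction called for a member turned under them.

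**Figure D1:**
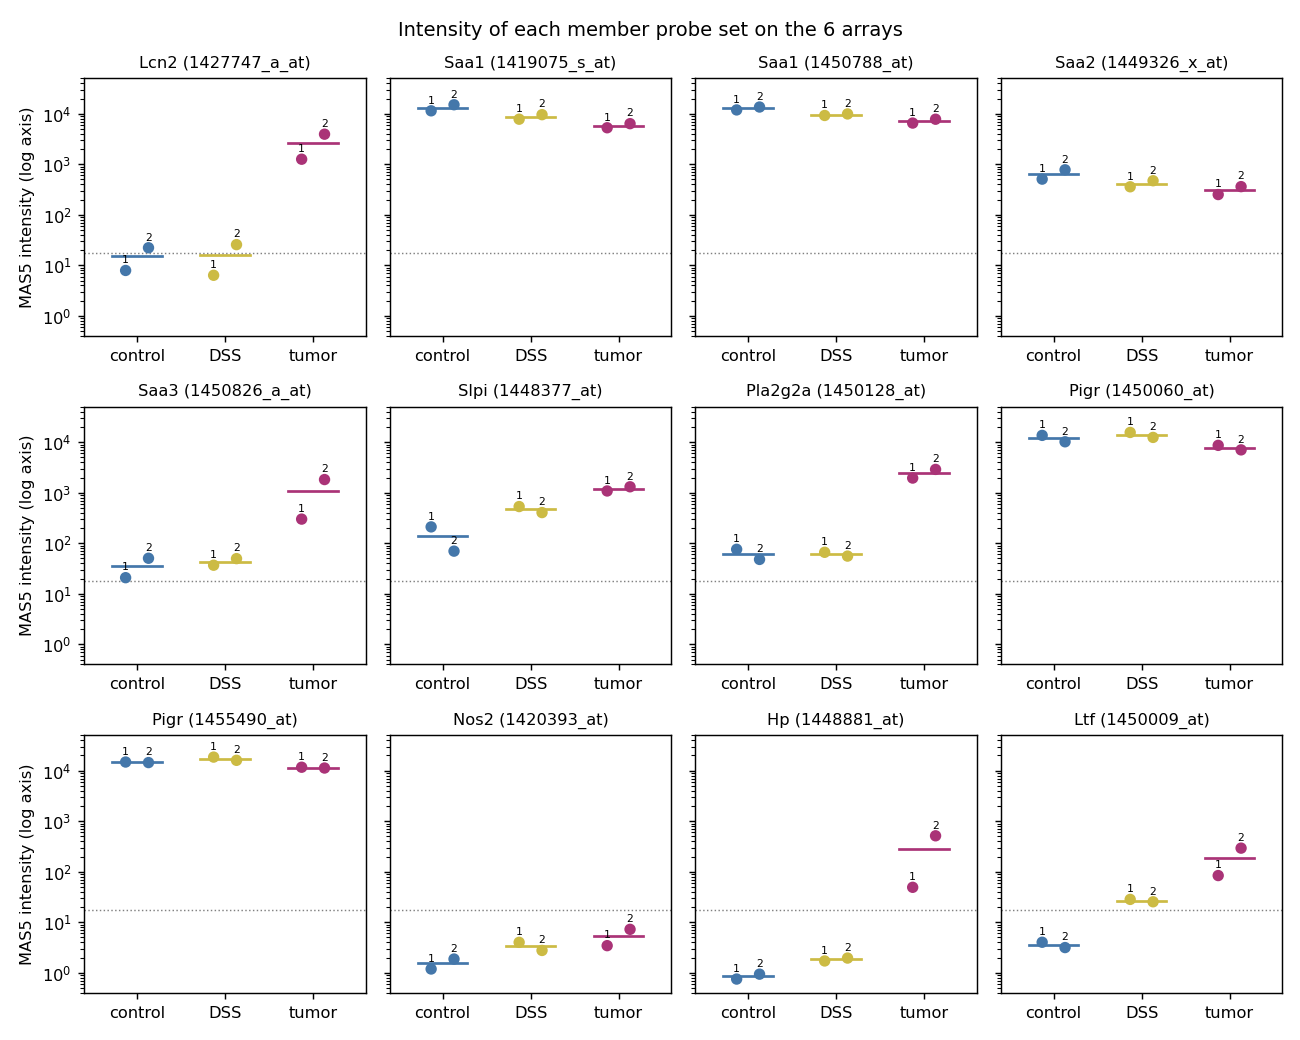
MAS5 intensity (log axis) of the 12 member probe sets on each array, with replicate 1 on the left and replicate 2 on the right of each group, a bar at the group mean and a dotted line at 17.8, the value added before taking logs. Lcn2, Saa3, Pla2g2a, Slpi, Hp and Ltf sit above control on both tumor arrays, Saa1, Saa2 and Pigr below, and Nos2 stays under the dotted line throughout.

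Lcn2, of the siderophore-binding lipocalin-2, had the largest tumor change of the members tested, though it entered the test only through the tumor arrays. Its probe set 1427747_a_at read 7.9 and 22.3 in control crypts, 6.4 and 25.7 in DSS crypts, and 1259 and 3941 in tumor crypts. Control and DSS arrays interleaved near the floor, and both tumor arrays lay far above them. Group means were 15.1 ± 10.2, 16.0 ± 13.7 and 2600 ± 1896 (SD, n = 2). Tumor exceeded control by 6.13 ± 0.54 (SE; limma, Benjamini-Hochberg adjusted p = 0.000243) and DSS by 6.12 ± 0.54 (adjusted p = 0.000237). The size depended on the value added before logs, with a range of 4.27 to 7.27 against control over settings that left out no single array, and with no filter it was 6.95 without tumor replicate 1 and 5.32 without tumor replicate 2, all called. DSS differed from control by 0.01, with a 95% interval of -1.22 to 1.25. That interval also includes the difference between the tumor arrays, since all groups share their spread in the fit.

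Ltf, of lactoferrin, lay lowest in control, between in DSS and highest in tumor crypts, without overlap. The intensities of probe set 1450009_at were 4.0 and 3.2 in control, 28.4 and 25.4 in DSS, and 84.0 and 293 in tumor crypts. Both control values lay under 17.8 and both DSS values far below their arrays' medians of 94.8 and 107. The order of control and DSS is thus read near the floor. It was above its array's median on 1 array only and was not tested. With no filter, Ltf was higher in tumor than in control crypts by 3.06 ± 0.50 (limma adjusted p = 0.0109) and than in DSS crypts by 1.99 ± 0.50 (adjusted p = 0.0409), and this second call was lost without tumor replicate 2, at 1.19 and adjusted p = 0.0785. DSS exceeded control by 1.06 ± 0.50 in that fit, which did not pass (adjusted p = 1.00, unadjusted p = 0.0701). The error of this change also includes the difference between the tumor arrays.

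Hp, of haptoglobin, read 0.8 and 0.9 in control, 1.7 and 2.0 in DSS, and 49.2 and 514 in tumor crypts. The control and DSS values are at the floor of the array, so their order carries no weight, and the tumor arrays differed from each other by 10.5-fold. Hp was above its array's median on 1 array and was not tested. With no filter, tumor exceeded control by 3.34 ± 0.83 (limma adjusted p = 0.0439), and the change was 4.84 without tumor replicate 1 and 1.85 without tumor replicate 2, both called.

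The serum amyloid A genes split. Saa1 and Saa2 were lower in tumor crypts and Saa3 was higher. Saa1 probe set 1450788_at read 11904 and 13590 in control, 9245 and 9916 in DSS, and 6540 and 7792 in tumor crypts. The 3 groups did not overlap, with DSS between the others. Means were 12747 ± 1192, 9580 ± 474 and 7166 ± 885 (SD, n = 2), so the tumor mean was 56.2% of the control mean. Tumor minus control was -0.83 ± 0.15 (SE; limma adjusted p = 0.00682), and the call was lost without control replicate 2, at -0.74 and adjusted p = 0.0620. DSS minus control was -0.41 ± 0.15 and did not pass (adjusted p = 1.00), and tumor minus DSS was -0.42 ± 0.15 (adjusted p = 0.0772), which median centring carried past the threshold at -0.66 (adjusted p = 0.0451).

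A second probe set listed for Saa1, 1419075_s_at, carries an accession that RefSeq gives to Saa2. It read 11427 and 15076 in control, 7800 and 9585 in DSS, and 5284 and 6363 in tumor crypts, in the same order of groups and without overlap. Fitted by itself, it was lower in tumor than in control crypts by 1.18 on the log2 scale, as a change of -1.18 ± 0.19 (limma adjusted p = 0.00470). In that fit 3 probe sets of 2 members were called lower (both of Saa1 and that of Saa2), where 8.67% of 11194 probe sets were. Saa2 probe set 1449326_x_at read 508 and 778 in control, 359 and 472 in DSS, and 252 and 361 in tumor crypts. Its control arrays lay above all others, and the higher tumor array just passed the lower DSS array. Tumor minus control was -1.02 ± 0.27 (limma adjusted p = 0.0289), a call lost without control replicate 2 (-0.72, adjusted p = 0.170), without tumor replicate 1 (-0.77, adjusted p = 0.106) and with no filter (adjusted p = 0.0580). Tumor minus DSS was -0.43, with a 95% interval of -1.04 to 0.19. Because Saa1 and Saa2 are close copies and these probe sets carry the suffixes for shared probes, their signals may not be separable.

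Saa3, the member of the family known mainly from macrophages, fat and inflamed epithelium, went the other way. Probe set 1450826_a_at read 20.9 and 50.5 in control, 36.8 and 49.7 in DSS, and 301 and 1824 in tumor crypts. Control and DSS overlapped, and both tumor arrays stood above them while differing from each other by 6.07-fold. Tumor exceeded control by 3.90 ± 0.70 (limma adjusted p = 0.00629) and DSS by 3.66 ± 0.70 (adjusted p = 0.00736). With no filter, the change against control was 5.16 without tumor replicate 1 and 2.63 without tumor replicate 2, both called. DSS minus control was 0.24, with a 95% interval of -1.37 to 1.86. Since all groups share their spread in the fit, this interval also includes the difference between the tumor arrays.

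The 250 bases upstream of the RefSeq start (GRCm38.p6) are shown for the 3 serum amyloid A genes because 2 of them fell in tumor crypts and 1 rose. They lie at chr7:46742981-46743230 on the minus strand for Saa1, at chr7:46751583-46751832 on the plus strand for Saa2 and at chr7:46715677-46715926 on the minus strand for Saa3. RefSeq's span of Saa1 reaches 46743181, inside its window, and that of Saa3 reaches 46719615, upstream of its whole window. For these genes the start used is thus not the furthest upstream. Each is written from 5′ to 3′ on the gene's strand, ending at the base before the start, and capitals mark matches on either strand to the C/EBP motif TTNNGNAA.
Saa1: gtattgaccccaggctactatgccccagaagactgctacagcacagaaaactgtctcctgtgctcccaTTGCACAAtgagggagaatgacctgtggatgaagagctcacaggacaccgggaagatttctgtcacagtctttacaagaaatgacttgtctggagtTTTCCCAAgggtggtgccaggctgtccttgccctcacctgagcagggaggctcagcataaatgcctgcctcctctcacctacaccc
Saa2: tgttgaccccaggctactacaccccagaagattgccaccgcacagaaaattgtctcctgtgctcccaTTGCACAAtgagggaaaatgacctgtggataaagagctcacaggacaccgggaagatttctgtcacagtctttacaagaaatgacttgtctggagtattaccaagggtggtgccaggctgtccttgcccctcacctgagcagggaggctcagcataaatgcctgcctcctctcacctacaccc
Saa3: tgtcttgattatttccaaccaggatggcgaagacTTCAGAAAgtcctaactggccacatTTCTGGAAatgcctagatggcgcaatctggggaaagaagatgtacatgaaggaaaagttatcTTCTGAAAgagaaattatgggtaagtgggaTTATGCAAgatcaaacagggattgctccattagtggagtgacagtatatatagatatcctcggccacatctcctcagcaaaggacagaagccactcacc
Aligned end to end, the Saa1 and Saa2 windows were identical in 94.8% of columns (238 of 251), whereas Saa3 matched Saa1 in 52.2% and Saa2 in 52.4%. The Saa1 window held 2 C/EBP matches, at bases -182 to -175 and -86 to -79 from the start, and the Saa2 window held 1, at -183 to -176. Saa3 had 4, at -216 to -209, -191 to -184, -129 to -122 and -99 to -92. RefSeq's table held such a window for 7 members, and 6 had a C/EBP match (all but Pigr), as did 36.8% of the table's 32851 promoters. The NF-kB motif (GGG and TTTCC with 2 bases of any kind between them) and the STAT motif TTCNNNGAA matched in 0 of the 7, against 1.41% and 7.02% of all promoters. A match is only a run of letters and shows no binding, and the searched motifs did not overlap one another here. Because few promoters match the NF-kB or STAT letters at all, 0 of 7 cannot show that these windows lack such sites. The windows of Pla2g2a, Nos2 and Hp were not analysed here.

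Slpi, the protease inhibitor, had the largest DSS change among the members tested. Probe set 1448377_at read 211 and 69.9 in control, 533 and 405 in DSS, and 1084 and 1312 in tumor crypts. The 3 groups formed separate steps. Means were 140 ± 99.8, 469 ± 90.4 and 1198 ± 161 (SD, n = 2). Tumor exceeded control by 3.10 ± 0.40 (SE; limma adjusted p = 0.00136). Tumor exceeded DSS by 1.33 ± 0.40 (adjusted p = 0.0404), a call lost when any 1 tumor or DSS array was left out (1.14 to 1.52, adjusted p = 0.0647 to 0.149), and also at 1.26 with quantile normalization (adjusted p = 0.0561), 1.36 with a pseudocount of 1 (adjusted p = 0.0564), and 1.33 with no filter (adjusted p = 0.0811) or no intensity trend (adjusted p = 0.0578). DSS minus control was 1.77 ± 0.40, with a 95% interval of 0.86 to 2.68, and was not called (adjusted p = 0.857, unadjusted p = 0.0020). With the replicate number as a block, it was called in a fit of those groups alone (limma adjusted p = 3.05e-14) and not in a fit of all 3 groups (adjusted p = 0.603). The fit of those groups alone leaves 1 residual degree of freedom per gene, so its p-value rests mostly on spread borrowed from other genes. No gene passed in that comparison, in which 0% of 7456 genes were called by limma, 187 had an unadjusted p under 0.05 and the smallest adjusted p was 0.198.

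Pla2g2a, named for a secreted phospholipase, had the smallest adjusted p of the members tested. It entered the test only through the tumor arrays, so this rank adds little. Probe set 1450128_at read 75.9 and 47.9 in control, 66.3 and 55.8 in DSS, and 1952 and 2896 in tumor crypts. The DSS arrays lay within the control range, and both tumor arrays stood far above. Means were 61.9 ± 19.8, 61.0 ± 7.45 and 2424 ± 667 (SD, n = 2). Tumor exceeded control by 4.93 ± 0.27 (SE; limma adjusted p = 4.03e-05) and DSS by 4.93 ± 0.27 (adjusted p = 3.92e-05). With no filter, the limma adjusted p against control was 0.000299. The change there was 5.21 without tumor replicate 1 and 4.65 without tumor replicate 2. DSS minus control was 0.00, with a 95% interval of -0.61 to 0.62. RefSeq lists Pla2g2a as a transcribed pseudogene in the C57BL/6J reference, so the probe set reports its RNA and not a protein.

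Nos2, the inducible nitric oxide synthase, was near the floor in every group. Probe set 1420393_at read 1.2 and 1.9 in control, 4.0 and 2.8 in DSS, and 3.4 and 7.3 in tumor crypts. All 6 values lay under 17.8, so no order can be read from them. With no filter, tumor minus control was 0.26 ± 0.19 (limma adjusted p = 0.442).

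Pigr, the IgA transporter of the epithelium, was bright in all groups and lowest in tumor crypts. Probe set 1455490_at read 14836 and 14469 in control, 18570 and 16031 in DSS, and 11707 and 11289 in tumor crypts. The groups did not overlap, with DSS on top. Tumor minus DSS was -0.58 ± 0.14 (SE; limma adjusted p = 0.0164), but the call was lost with quantile normalization (-0.29, adjusted p = 0.0648), with no filter (adjusted p = 0.0635), without DSS replicate 1 (-0.48, adjusted p = 0.126) and without tumor replicate 2 (-0.56, adjusted p = 0.0727). Tumor minus control was -0.35 ± 0.14 and did not pass (adjusted p = 0.104), and DSS minus control was 0.24 ± 0.14 (adjusted p = 1.00). The other probe set, 1450060_at, read 13654 and 10195 in control, 15601 and 12448 in DSS, and 8664 and 7052 in tumor crypts, and its control and DSS ranges overlapped. In the fit of each probe set by itself, it was lower in tumor than in DSS crypts (-0.83 ± 0.20, limma adjusted p = 0.0191). Both Pigr probe sets were called lower there, against 10.1% of 11194 probe sets.

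**Figure D2:**
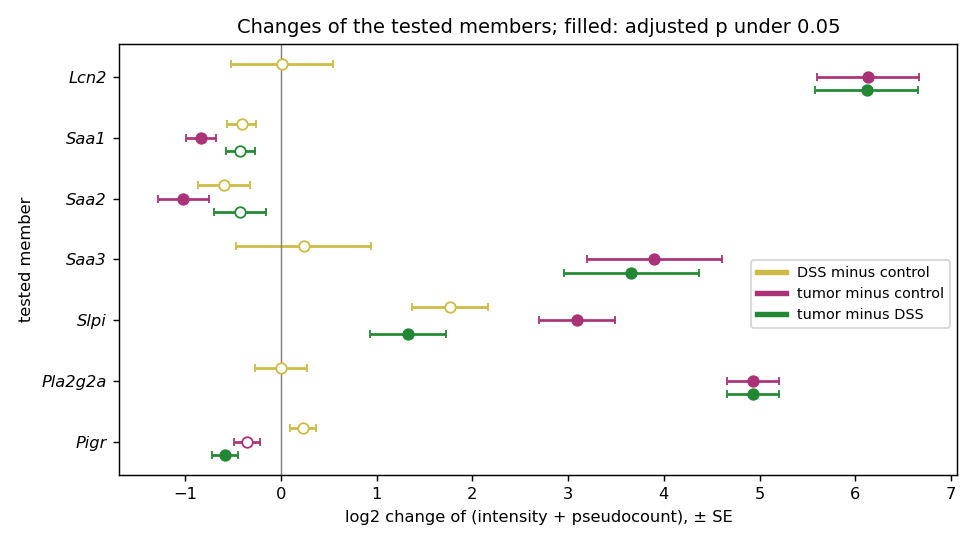
Log2 change of intensity plus 17.8 (points) with its standard error (bars) for the 7 members tested, in each of the 3 comparisons, filled where limma's adjusted p was under 0.05. Against control, Lcn2, Saa3, Slpi and Pla2g2a are filled on the right for tumor, Saa1 and Saa2 on the left, and no DSS point is filled.

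Against DSS crypts, 4 of the 7 members tested were called higher in tumor crypts (Lcn2, Saa3, Slpi and Pla2g2a) and 1 lower (Pigr), where 14.9% and 11.3% of all genes tested were called. Lcn2, Saa3 and Pla2g2a entered the test only through the tumor arrays, so their calls add little. Those of Slpi and Pigr were lost under several settings. With no filter, 5 of the 10 members were called higher and 0 lower, and 8.32% of 12393 genes were called higher. The share of all genes called lower in that fit was not counted. Both comparisons use the same tumor arrays. Over the 12 probe sets, both tumor arrays lay above both DSS arrays for 6 and below for 4 (both of Saa1 and both of Pigr), against 30% and 24.5% of all probe sets. Both DSS arrays lay above both control arrays for 5 probe sets (Slpi, Pigr 1455490_at and, near the floor, Ltf, Nos2 and Hp) and below for 3 (those of Saa1 and Saa2), against 13.2% and 14.7%.

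The 2 tumor arrays were unequal for a subset of the members. Replicate 2 exceeded replicate 1 by 2.99 on the log2 scale for Hp, by 2.53 for Saa3, by 1.63 for Lcn2 and by 1.61 for Ltf. Of all 20380 probe sets, 0.0981%, 0.236%, 1.29% and 1.35% had a larger difference, and the middle 90% ran from -0.56 to 0.97. The difference was 0.56 for Pla2g2a, 0.49 for Saa2, 0.27 for Slpi, 0.25 for Saa1 1450788_at and -0.05 for Pigr 1455490_at, all inside that span. Markers of other cells moved with the first 4. The sum over the 13 neutrophil markers measured of 16 was 2652 on replicate 1 and 14326 on replicate 2, a 5.40-fold difference, against 515 to 1603 on the control and DSS arrays. Cd177 read 1543 and 2430 there and made up most of the lower sums. Without it the sums were 1109 and 11897, a 10.7-fold difference, against 132 to 207 on the control and DSS arrays. Of the other 12 markers 9 were higher on replicate 2, among them S100a8 (698 and 6638), S100a9 (281 and 4555), Ngp (9.5 and 201), Mmp9 (40.8 and 208) and Mmp8 (3.8 and 81.3). The granule genes Elane, Mpo and Ctsg were not, at 1.0 to 12.4 on both tumor arrays. The macrophage and monocyte sum was 5611 and 11426 (2.04-fold). Without Lyz2 and Cd14, which carried it, the sum was 835 and 3627 (4.34-fold), and all 14 other markers were higher on replicate 2. The fibroblast sum was 1893 and 9734 (5.14-fold). Replicate 2 also had the higher fibroblast sum in control (2295 and 4277) and DSS crypts (2971 and 5445). The macrophage and monocyte sum did likewise, at 2091 and 2897 in control and 1999 and 2890 in DSS crypts. Without Lyz2 and Cd14 it was 404 and 1167 in control and 403 and 1244 in DSS crypts, so replicate 2 was clearly higher in every group. The epithelial sum was 82247 and 80219. The part of these cells in the member values was not tested.

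**Figure D3:**
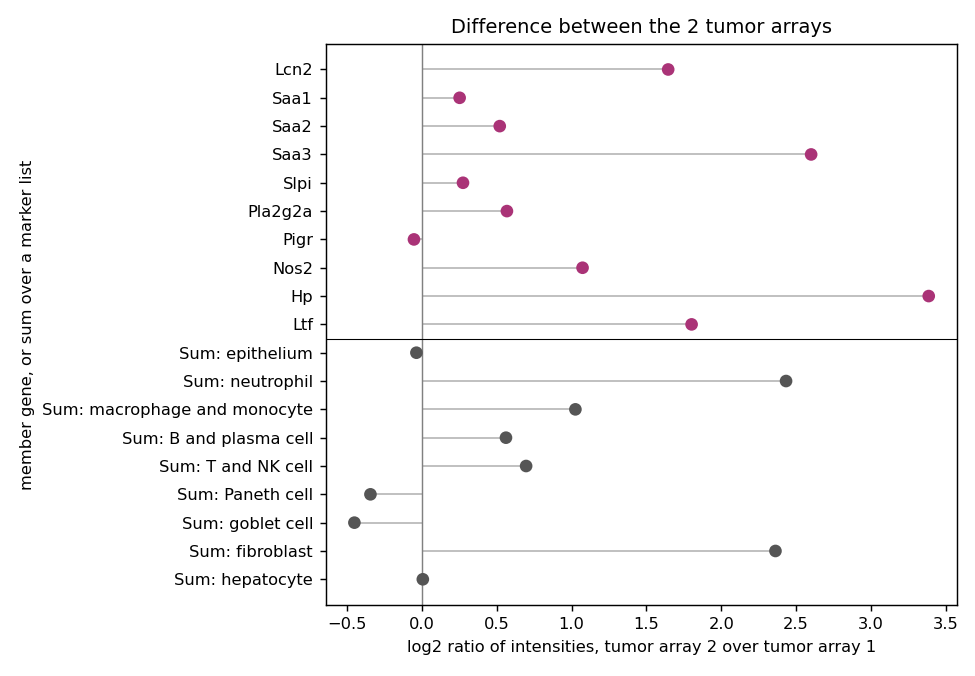
Log2 ratio of the intensity on tumor replicate 2 over tumor replicate 1, with no value added, for the 10 members (1 probe set each) and for the sums over 9 lists of cell type markers. Hp, Saa3, Ltf and Lcn2 lie to the right together with the neutrophil and fibroblast sums, and Saa1, Slpi and Pigr lie near 0 with the epithelial sum.

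Between the groups, Paneth and goblet cell markers moved as well. The sum of the 5 Paneth cell markers measured was 603 to 1010 on the control and DSS arrays and 26905 and 21210 on the tumor arrays, higher on tumor replicate 1, and the 3 tested (Mmp7, Lyz1 and Itln1) were higher in tumor than in control crypts. Lyz1 (17596 and 13927) and Mmp7 (6283 and 5709) carried the tumor sums. Mmp7 read 25.8 to 36.3 on the control and DSS arrays, so it had to be higher in tumor crypts to be tested. The defensin gene Defa3 was near the floor on every array, at 9.4 and 1.4 in tumor crypts, and Habp2 read 50.8 and 52.3 there. Pla2g2a, a Paneth cell product in the small intestine, is on that list by its known role and was left out of the sum. The goblet cell sum was 73695 to 85645 on the control and DSS arrays and 51211 and 37481 on the tumor arrays. Of 7 goblet cell markers tested, 5 were called lower in tumor than in control crypts. Agr2, Tff3 and Zg16 among them were near the threshold (limma adjusted p = 0.0397, 0.0422 and 0.0398). Of all genes tested, 12.9% were called higher and 9.75% lower in tumor than in control crypts. Of the B and plasma cell markers 0 of 3 tested were called in that comparison, of the fibroblast markers 1 of 8 (Fn1, higher), and of the hepatocyte markers 2 of 3 (Alb higher, Ttr lower). Their part in the members' values was not tested.

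Other genes of the same pathways were read from 4 lists chosen with results of these data known. Some of their genes are also cell type markers, among them S100a8, S100a9, Lyz1, Lyz2, Itln1, Zg16 and Cd14. Their counts thus partly repeat the marker results above. Of the other antimicrobial proteins, 28 of 34 were measured and 13 tested. Against control, 9 were called higher and 2 lower in tumor crypts, where 12.9% and 9.75% of all genes tested were called. The median change was 3.49, and 0.05 over all genes. It was 1.97 without tumor replicate 1 and 1.20 without tumor replicate 2. That list thins to 9 tested genes when either tumor array is left out, of which 4 were called higher, so several had entered through the tumor arrays. Reg3b and Reg3g, lectins that bind bacterial cell walls, were higher by 8.71 ± 0.66 and 7.81 ± 0.47, and the lysozyme gene Lyz1 by 5.08 ± 0.21 (SE; limma). Reg3b read 16.9 and 0.7 in control, 203 and 32.8 in DSS, and 15772 and 7062 in tumor crypts. Here tumor replicate 1 was the higher array. Wfdc2, a relative of Slpi with the same type of fold, was lower by 1.18 on the log2 scale (-1.18 ± 0.21), and Zg16, a goblet cell lectin, had a change of -0.68 ± 0.20, lost without tumor replicate 2 (adjusted p = 0.209) or either control array.

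Of the other acute phase proteins, 25 of 29 were measured and 7 tested, and 3 were called higher and 1 lower in tumor than in control crypts (median 0.43). Of all genes tested, 12.9% and 9.75% were called. The count of 3 became 1 without control replicate 1 or tumor replicate 2, and 2 without any other single array. Steap4, a metalloreductase, was higher by 2.82 ± 0.33 (SE; limma adjusted p = 0.000833). Steap4 read 94.2 and 66.3 in control, 199 and 114 in DSS, and 526 and 846 in tumor crypts, so its groups formed steps without overlap. The ferroxidase gene Cp, at 16.8 and 98.3 in control and 252 and 931 in tumor samples, lost its call without control replicate 1 and with no filter, and Cd14, at 0.70 ± 0.21, lost it under most single-array omissions. The metallothionein gene Mt1 was lower, at -0.81 ± 0.19, a call lost without control replicate 2 or tumor replicate 2.

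Among the cytokine receptors and signal transducers known to induce these genes, 45 of 52 were measured and 38 tested. In tumor against control crypts, 8 were called higher and 2 lower (median 0.29), where 12.9% and 9.75% of all genes tested were called. The higher count fell to 2 without control replicate 2 and to 2 without tumor replicate 2. Socs3, the feedback inhibitor of STAT3, was higher by 2.89 ± 0.46 (SE; limma adjusted p = 0.00354), and the receptor gene Tlr2 by 1.83 ± 0.21 (adjusted p = 0.000743). Socs3 read 166 and 372 in control, 321 and 444 in DSS, and 1263 and 3068 in tumor crypts. Il17re, a subunit of the IL-17C receptor, was lower, at -1.29 ± 0.21 (adjusted p = 0.00410), with control arrays at 702 and 598 and tumor arrays at 279 and 231. The oncostatin M receptor gene Osmr, at 1.85 ± 0.42, lost its call without either control array. The IL-17 receptor gene Il17rc, at -0.90 ± 0.25, lost it without any single control or tumor array.

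For receptors, substrates and partners of the members, 25 of 31 were measured and 12 tested, with 2 called higher and 1 lower in tumor than in control crypts (median 0.10), close to the 12.9% and 9.75% of all genes tested. The count of 2 became 1 without control replicate 2 or either tumor array. Arg1, which uses the same arginine as Nos2, was higher by 5.80 ± 0.32 (SE; limma adjusted p = 4.03e-05), from 13.1 and 9.3 in control to 1262 and 1999 in tumor crypts. Gch1, whose product leads to the cofactor of Nos2, was higher by 1.02 ± 0.21 (adjusted p = 0.0105), a call lost without control replicate 2. The iron exporter gene Slc40a1 was lower, at -1.67 ± 0.18 (adjusted p = 0.000592), with control arrays at 5678 and 6414 and tumor arrays at 2112 and 1670. Arg1 and Reg3g, like Lcn2, were tested only because both tumor arrays were bright. Against DSS crypts, the counts called higher and lower were 9 and 2 of 13 other antimicrobial proteins tested, and 3 and 1 of 7 acute phase proteins. They were 10 and 1 of 38 cytokine receptors and transducers, and 2 and 1 of 12 partners. Of all genes tested, 14.9% and 11.3% were called in that comparison, and the partners lay close to these shares. Leaving out 1 array lowered several of these counts. For the cytokine receptors and transducers, 2 were called higher without DSS replicate 1 and 2 without tumor replicate 2. For the other antimicrobial proteins, 5 of 9 tested were called higher without either tumor array. For the acute phase proteins, 1 was called higher without tumor replicate 2, and 2 without tumor replicate 1 or either DSS array. For the partners, 1 was called higher without tumor replicate 2. The genes leading each list were those named above, with Tnfrsf1b, a receptor for tumor necrosis factor, added at 1.69 ± 0.35 (limma adjusted p = 0.0101), a call lost without DSS replicate 1 or tumor replicate 2. In DSS against control crypts, 0 genes of these 4 lists were called by limma, as over all genes.

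**Figure D4:**
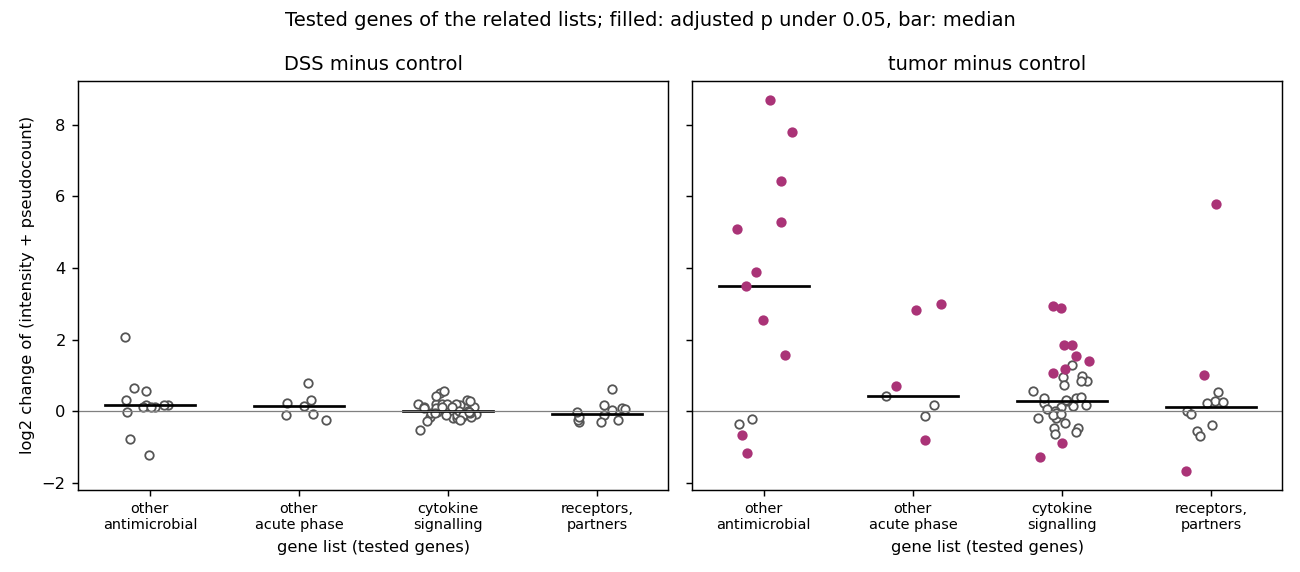
Log2 change of intensity plus 17.8 for the tested genes of 4 related lists, DSS minus control on the left and tumor minus control on the right, with filled points for limma's adjusted p under 0.05 and a bar at the median. Filled points appear only on the right, 11 of 13 among the other antimicrobial proteins and 10 of 38 among the cytokine receptors and signal transducers.

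For each member tested, the genes of most similar pattern were those with the smallest root mean square difference of centred log2 values over the 6 arrays. For Lcn2 they were Plat (0.36), Cxcl2 (0.40) and Arg1 (0.43), against a range of 7.36 for Lcn2 itself. Cxcl2, a chemokine, read 14.6 and 28.2 in control crypts, stayed below 28.2 in DSS crypts, and read 693 and 3572 in tumor crypts. For Saa3 they were Mmp10 (0.23), Cadps (0.25) and Ubd (0.38), and Mmp10, a matrix protease, read 198 and 1171 on the tumor arrays, with replicate 2 again higher. For Pla2g2a they were Tex15 (0.18), Tbx3 (0.24) and Spock2 (0.26).

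Slpi was followed by Krt14 (0.48), Steap4 (0.52) and Lpo (0.53), each with DSS between control and tumor crypts in mean. Krt14, a keratin of stratified epithelia, read 28.6 and 19.1 in control, 65.5 and 69.7 in DSS, and 343 and 297 in tumor crypts. For Saa1 the nearest were Hdhd3 (0.05), Zfp37 (0.11) and Cebpa (0.12), over a range of 1.05 for Saa1. Cebpa, which codes for C/EBP alpha, read 314 and 361 in control, 262 and 296 in DSS, and 214 and 227 in tumor crypts. For Saa2 they were Ly75 (0.11), Dmxl1 (0.14) and Hdhd3 (0.16), and for Pigr they were Angel2, Rbl2 and Mindy1 (0.04 each, over a range of 0.72). Genes with a small range, such as Pigr, have many near neighbours by this measure.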

How the data were processed

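RNA of 6 crypt pools, 2 from each group, was measured on Affymetrix arrays. The deposited values were linear MAS5 intensities per probe set, per the submitters' processing notes, and the MAS5 version and scaling target were not given in the sources used here. The authors' table held no detection calls, and raw array files were not analysed here. Setting aside 64 controls from its 22690 probe sets, 20380 of the other 22626 had 1 gene symbol, 691 several and 1555 none. The number of arrays limits the precision. The members and gene lists were chosen with earlier results of these data known.

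Values were transformed as log2 of intensity plus 17.8, the 25th percentile. A probe set was kept if 2 or more arrays exceeded their own median there, and each gene's probe set of highest mean was tested (7456 genes). The fit (limma 3.58.1, R 4.3.3) held all 3 groups and let the variance follow intensity, with 2-sided tests, Benjamini-Hochberg adjustment over all genes tested and a threshold of 0.05. The code was tested on simulated data. Alternatives covered scaling (median centring, quantile), pseudocount, filter, probe set choice, trend, samples fitted, replicate block and single arrays left out.

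Named genes are all members, the called genes of smallest p in each pathway list (at most 3 in each direction) and the 3 genes of most similar pattern. Promoter windows and gene names came from RefSeq (GRCm38.p6).

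Arrays with the same replicate number shared no stated source. Deviations from the group means correlated between same-numbered arrays at 0.305 for control and DSS, 0.148 for control and tumor, and 0.299 for DSS and tumor, over probe sets.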

Additional observations from a re-analysis of the deposited data

How the results depend on the processing

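Of 393 values from alternatives for the 21 member results, 358 kept their direction and side of the threshold, 24 fell below it, 3 passed it and 8 turned direction. All 8 were DSS minus control changes near 0. Lcn2 turned to -0.041 with a pseudocount of 1, and left-out arrays moved it from -0.41 to 0.44. Saa3 ranged from -0.17 to 0.65 over left-out arrays. Pla2g2a was -0.0099 with median centring and -0.0034 with the pseudocount at the median, and ranged from -0.25 to 0.26 over left-out arrays. The cause was not tested.

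Counts of genes called moved with fewer genes or arrays. With a filter at the 75th percentile, 1103 genes were called between tumor and control and 1262 between tumor and DSS crypts, of 4160 tested. Leaving out 1 array gave 0 to 2 genes for DSS against control, 702 to 1391 for tumor against control and 922 to 1927 for tumor against DSS. With the replicate number as a block and only the groups compared, 114 genes were called between DSS and control, Slpi among them (1.77, limma adjusted p = 3.05e-14), and Saa1 was called in tumor against DSS (-0.42, adjusted p = 0.0109). These numbers are not a stated pairing. Such a fit leaves 1 residual degree of freedom per gene, so its p-values rest mostly on spread borrowed from other genes.

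Lcn2, Saa3 and Pla2g2a could not be tested with the filter when either tumor array was left out, so fits with no filter were added after seeing the data. They could not be tested in DSS against control fits of those groups alone, and Saa3 not with the 75th percentile filter. Signals near the floor limit Nos2, Hp and the control and DSS levels of Lcn2 and Ltf.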

Other observations

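Some genes split the arrays by replicate number in every group, and the examples were chosen after their values were seen. Jchain, which codes for the chain that lets Pigr carry IgA, read 186, 95.4 and 97.5 on replicate 1 of control, DSS and tumor crypts, and 2422, 3094 and 1637 on replicate 2. Retnlb, a goblet cell antimicrobial protein, ran the opposite way, with 11923, 4655 and 2881 on replicate 1 and 323, 141 and 834 on replicate 2. Pigr read 18570 and 16031 on replicates 1 and 2 of DSS crypts on probe set 1455490_at. The spiked poly-A controls averaged 874 for replicate 1 of control, 1314 for replicate 1 of DSS and 351 to 443 elsewhere.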
